A study of Capra hircus with 6 samples.

Results

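Solute carrier (SLC) genes encode membrane proteins that move small molecules into and out of cells and organelles, and their symbols join a family number to a member letter and number. The 104 SLC genes described here are the rows of the gene table whose symbol begins with SLC and a digit and which held at least 10 reads over all 6 libraries, out of 192 rows with such a symbol and 11374 genes in all. They belong to 40 families, and 101 of them are named for carriers. The other 3, SLC9A3R1, SLC7A6OS and SLC2A4RG, bear an SLC symbol without being transporters. The cells were goat (Capra hircus) fetal fibroblasts with a labelled fetal age of 50 days, the collagen-making cells of connective tissue. Treated cells grew for 10 weeks with 0.5 µg/mL GO-AgNP, a composite of graphene oxide with silver nanoparticles, and control cells grew with 0 µg/mL. Each group had 3 libraries of total RNA cleared of ribosomal RNA. The labels give no genotype or sex and do not tell whether replicate libraries were grown as separate cultures. The p-values therefore set the difference between groups against the spread among these libraries alone, and that spread may be technical.

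Carriers of the SLC series work without hydrolysing ATP themselves: they let a solute run down its gradient, exchange one solute for another, or pull a solute along with sodium or protons. Amino acid carriers such as SLC7A7 act as pairs of a transporting light subunit and a heavy subunit that brings it to the membrane. In fibroblasts, carriers supply glucose, amino acids for collagen, vitamin C for the hydroxylation of collagen, and sulfate with its activated form for proteoglycans. SLC symbols also cover carriers best known from kidney, liver, gut and pigment cells.

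Reads counted on genes numbered 155452 to 218493 in the treated and 203786 to 245958 in the control libraries. One read was worth 6.38 to 7.16 CPM in the treated and 3.36 to 4.58 CPM in the control libraries. CPM is the usual scaled read count, here taken over the TMM-scaled library size, which lines up the bulk of genes between libraries. Fibroblast markers were counted for 11 of 12 genes, with a summed level of 18700 to 23000 CPM in treated and 11620 to 13350 CPM in control cells, and of 6 tested COL1A1, COL1A2, VIM and DCN rose. The other tested ones did not pass: FN1 averaged 2660 CPM in treated and 3274 CPM in control cells (log2 fold change -0.30 ± 0.15 SE, edgeR adjusted p = 0.092), and PDGFRA 60.6 CPM in treated and 114 CPM in control cells (log2 fold change -0.91 ± 0.43 SE, edgeR adjusted p = 0.081). Of 9 epithelial markers only KRT19, with 9, 13 and 14 reads in treated cells, and KRT8, with 4, 0 and 10 reads in treated cells, were counted, and both had 0 reads in every control library. Their summed level was 84.2 to 153 CPM in treated cells, against 0 in control cells, and the other 7 had no read or were not analysed here. Of 7 endothelial markers CDH5 alone had reads, at 0 to 25.5 CPM in treated and 27.5 to 36.9 CPM in control cells. Of 8 immune markers 3 had reads, summing to 149 to 255 CPM in treated and 79.0 to 151 CPM in control cells. CSF1R held most of that sum and rose. CD14, below the filter, lay the other way, with 0 reads in every treated library, against 2, 8 and 8 reads in control cells. CD68 had 8 reads in treated replicate 2, 4 reads in control replicate 2 and none elsewhere. Of 8 skeletal muscle markers 5 had reads, at 14.3 to 32.4 CPM in treated and 3.36 to 22.9 CPM in control cells. The part of these markers in the results that follow was not tested.

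SLC reads were a smaller share of gene reads in treated than in control cells. They made up 1.22%, 1.54% and 1.87% of gene reads in the treated libraries, against 3.22%, 3.13% and 2.65% in the control libraries, and the groups did not overlap. A single gene without a symbol, ENSCHIG00000018556, took 37.4% ± 8.94 of treated and 8.18% ± 5.66 of control gene reads (SD, n = 3 each). Of the reads on all other genes, SLC genes took 2.33%, 2.34% and 2.69% in the treated libraries, against 3.34%, 3.35% and 3.10% in the control libraries. As scaled levels, the SLC genes summed to 17870 ± 1115 CPM in treated and 25480 ± 688 CPM in control cells (SD, n = 3 each). SLC35B2 held 50.5% and SLC7A7 20.3% of all SLC reads. Without those genes the sum was 5200 ± 588 CPM in treated and 7470 ± 303 CPM in control cells (SD, n = 3 each). These are shares of RNA from many cells, in which fewer cells of a type and less RNA per cell cannot be told apart.

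**Figure D1:**
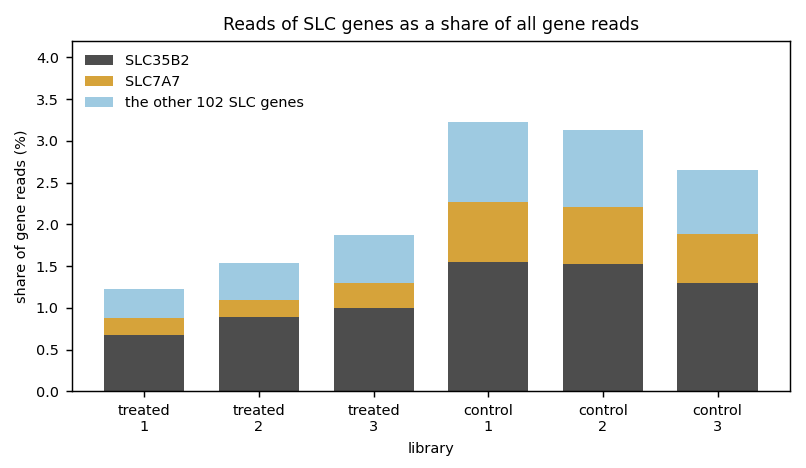
Bars give the share of all gene reads (%) that fell on SLC genes in each library, divided into SLC35B2, SLC7A7 and the other 102 SLC genes. The 3 treated bars end between 1.22% and 1.87% and the 3 control bars between 2.65% and 3.22%.

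Most SLC genes had few reads. The median was 35 reads over the 6 libraries, 30 genes had 10 to 20 reads, and 19 had more than 100. A low-count filter left 37 of them for testing with edgeR's quasi-likelihood test, in which every p was adjusted over all 2148 genes tested. At an adjusted p under 0.05, 4 SLC genes rose and 15 fell in treated cells, and 18 did not pass. Of all tested genes, 24.9% rose and 26.7% fell, 51.6% together, so the 51.4% of tested SLC genes that were called is near the background. By direction, 10.8% of the tested SLC genes rose and 40.5% fell. The median log2 fold change was -0.25 for the 37 SLC genes, also with the genes of an empty group at their bound, and -0.02 for all tested genes. A gene could pass the filter through the group in which it was high. Of 12 SLC genes that reached the filter level of 49.1 CPM before scaling in every control library but not in every treated one, 10 fell, and of 6 with the opposite pattern 3 rose. The 10 were SLC16A4, SLC16A12, SLC16A6, SLC26A1, SLC26A2, SLC35A1, SLC17A5, SLC2A12, SLC4A11 and SLC25A41, and the 3 were SLC38A10, SLC22A17 and SLC23A1. Their calls below carry this limit. Of 11 SLC genes that reached the filter level in every library, 1 rose and 5 fell, and of the other 8 none was called.

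A fit of all 6608 genes with at least 10 reads took in the 104 SLC genes together. There, 15 SLC genes (14.4%) rose and 29 (27.9%) fell in treated cells, beside 15.4% and 17.6% of all genes tested. All 19 genes called after the filter were called again. Without scaling factors the median log2 fold change of all tested genes was -0.47, and 2 SLC genes rose and 17 fell, beside 15.2% and 35.8% (51.0% together) of all tested genes. None of the 19 called genes changed direction under any setting tried. Per-library CPM did not overlap between the groups for 57 of the 104 SLC genes, 23 with treated cells above and 34 with treated cells below, where 45.5% of all genes with at least 10 reads did not overlap (22.1% above and 23.4% below). Of the 37 tested SLC genes 22 did not overlap, 6 above and 16 below, where 58.8% of all tested genes did not (27.5% above and 31.3% below).

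**Figure D2:**
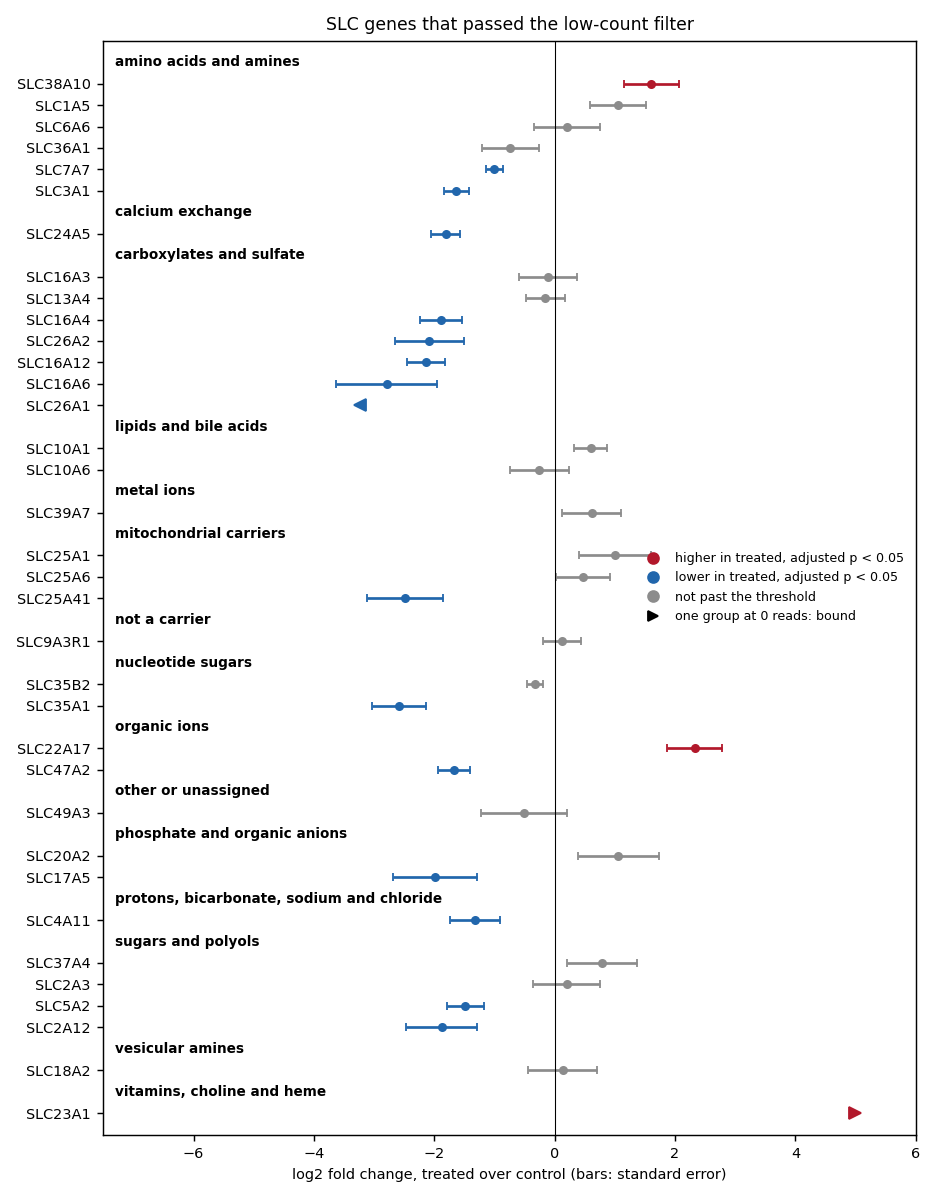
Points give the log2 fold change of treated over control cells for 35 of the 37 SLC genes that passed the low-count filter, grouped by substrate class, with bars for the standard error; triangles mark SLC23A1 and SLC26A1, whose fold is a bound because one group had 0 reads. The 3 plotted genes that rose and 15 that fell are coloured, and the 5 coloured points of the carboxylate and sulfate class all lie left of 0.

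Among carriers of amino acids and amines, 20 genes in all, 6 were tested, of which SLC38A10 rose and SLC7A7 and SLC3A1 fell. Of all tested genes, 24.9% rose and 26.7% fell. SLC7A7 is the light subunit of a carrier that exports arginine and lysine in exchange for neutral amino acids. Its level was 2994, 2376 and 3051 CPM in treated cells, against 5776, 5637 and 5490 CPM in control cells. Each treated library lay below each control library, 2.01-fold on average (SE 0.14 on the log2 scale, edgeR adjusted p = 6.5e-06). SLC3A1 is the heavy subunit of the cystine and dibasic amino acid carrier of kidney and gut. It had 227, 329 and 383 CPM in treated cells, against 912, 1148 and 846 CPM in control cells. It was 3.10-fold lower in treated cells with no overlap (log2 fold change -1.63 ± 0.21 SE, edgeR adjusted p = 2.0e-06). SLC38A10, from the family of sodium-coupled neutral amino acid carriers, had 376, 157 and 115 CPM in treated cells, against 79.0, 101 and 27.5 CPM in control cells. It was 3.05-fold higher (log2 fold change 1.61 ± 0.46 SE, edgeR adjusted p = 0.0056), but treated replicate 1 stood well above the others, and without it the log2 fold change was 0.96 and the adjusted p 0.123. It did not pass without scaling factors.

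SLC1A5, the main glutamine carrier of growing cells, had 90.7, 136 and 121 CPM in treated cells, against 23.7, 77.2 and 64.1 CPM in control cells. The groups did not overlap, yet the difference missed the threshold (log2 fold change 1.06 ± 0.47 SE, edgeR adjusted p = 0.061). SLC36A1, a proton-coupled amino acid carrier of lysosomes (log2 fold change -0.73 ± 0.47 SE), and the taurine carrier SLC6A6 (0.21 ± 0.55 SE) did not pass either. SLC7A1, which takes up arginine and lysine, was too low for the filter, with 16, 15 and 6 reads in treated cells, against 2, 1 and 0 reads in control cells. Its ratio was 21.1 (95% exact counting interval 6.67 to 107), and it rose in the fit of genes with at least 10 reads (edgeR adjusted p = 6.6e-04). In the same fit SLC16A10, which carries aromatic amino acids, fell with 2, 0 and 0 reads in treated cells, against 6, 20 and 5 reads in control cells (edgeR adjusted p = 0.028). SLC7A4 fell as well, with 1, 0 and 0 reads in treated cells, against 6, 12 and 5 reads in control cells (edgeR adjusted p = 0.028). SLC3A2, the heavy subunit that SLC7A7 pairs with, had 1, 6 and 5 reads in treated cells, against 2, 8 and 0 reads in control cells. It did not pass, nor did the neutral amino acid carrier SLC38A2, with 2, 6 and 0 reads in treated cells, against 8, 7 and 4 reads in control cells.

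Carriers of carboxylates and sulfate held 10 genes, of which 7 were tested and 5 fell, beside the 26.7% of all tested genes that fell. All 5 reached the filter level in every control library but not in every treated one, so they entered the test through the group in which they were high, and the count is given as a description. The SLC16 genes encode proton-linked or facilitative carriers of lactate, pyruvate, ketone bodies and related acids. SLC16A4 had 38.9, 85.9 and 147 CPM in treated cells, against 426, 279 and 311 CPM in control cells, and was 3.71-fold lower (log2 fold change -1.89 ± 0.35 SE, edgeR adjusted p = 1.2e-04). SLC16A12, known as a creatine carrier, had 77.8, 50.1 and 89.3 CPM in treated cells, against 312, 299 and 361 CPM in control cells, and was 4.41-fold lower (log2 fold change -2.14 ± 0.32 SE, edgeR adjusted p = 1.0e-05). Neither gene's groups overlapped. SLC16A6, a ketone body carrier, had 4, 0 and 0 reads in treated cells, against 14, 16 and 19 reads in control cells (log2 fold change -2.79 ± 0.84 SE, edgeR adjusted p = 0.0080). Its call was lost without treated replicate 2 (log2 fold change -2.15, adjusted p = 0.063) or treated replicate 3 (-2.08, adjusted p = 0.055), and without treated replicate 1 no treated read remained. The lactate exporter SLC16A3 did not pass, with 38.9, 71.6 and 115 CPM in treated cells, against 94.8, 101 and 45.8 CPM in control cells (log2 fold change -0.11 ± 0.48 SE). Its groups overlapped over most of their range.

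Of 4 members of the SLC26 family of anion exchangers, 2 were tested and both fell, beside the 26.7% of all tested genes that fell. Both entered the test through the control group, in which they were high, so this count too is a description. SLC26A2, the sulfate carrier on which cartilage proteoglycan depends, had 0, 5 and 8 reads in treated cells, against 31, 39 and 26 reads in control cells (log2 fold change -2.08 ± 0.58 SE, edgeR adjusted p = 0.0044). Its size turned on treated libraries: the log2 fold change was -1.48 without treated replicate 1 and -2.69 without treated replicate 3, and both kept the call. SLC26A1, a sulfate and oxalate exchanger, had 0 reads in every treated library, against 18, 16 and 14 reads in control cells. It was at least 9.37-fold lower in treated cells, against a floor of 3 reads over the group's 3 libraries (edgeR adjusted p = 2.5e-04). The intestinal chloride and bicarbonate exchanger SLC26A3 had 5, 5 and 9 reads in treated cells, against 4, 3 and 4 reads in control cells, and did not pass. The sodium-linked sulfate carrier SLC13A4 did not pass (log2 fold change -0.15 ± 0.33 SE), with 24, 19 and 22 reads in treated cells, against 42, 50 and 32 reads in control cells. Summed over the class, the level was 481 ± 144 CPM in treated and 1235 ± 96.1 CPM in control cells (SD, n = 3 each).

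**Figure D3:**
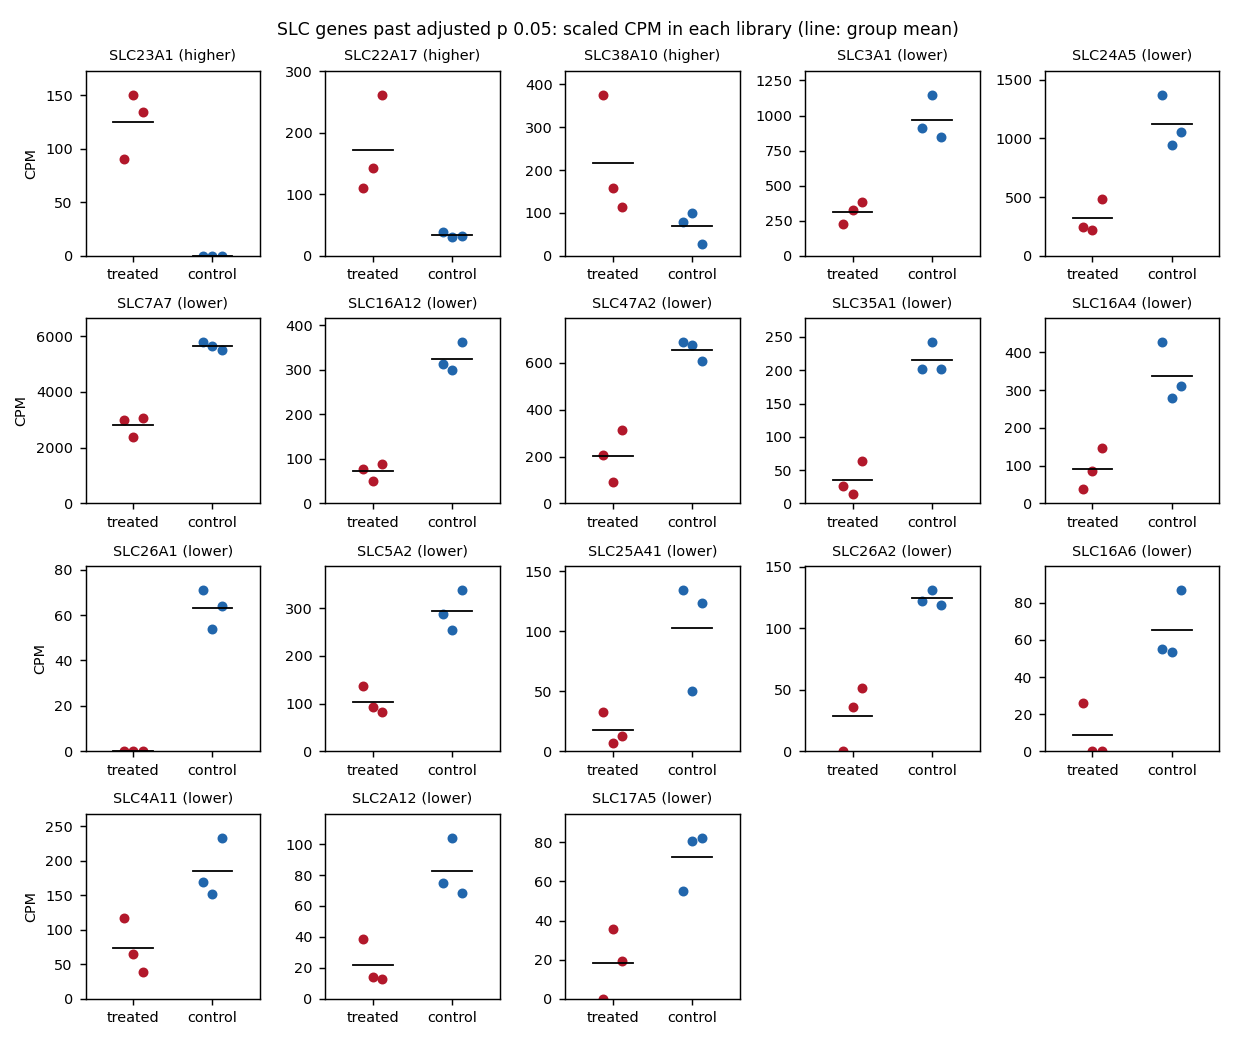
The 18 panels each show the scaled CPM of one of the 19 SLC genes past the adjusted p of 0.05 in the 3 treated (left) and 3 control (right) libraries, with a line at the group mean; genes that rose come first and axes start at 0. SLC23A1 lies at 0 in every control library and SLC26A1 at 0 in every treated library, and no panel shows overlapping groups.

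Transport of sugar nucleotides and activated sulfate into the Golgi is the work of the SLC35 family, in which 2 of 6 genes were tested. SLC35B2 brings the activated sulfate PAPS to the enzymes that sulfate proteoglycans, and it had more reads than any other SLC gene. It had 1467, 1378 and 1602 reads in treated cells, against 3154, 3751 and 2638 reads in control cells. As levels these were 9506 to 10220 CPM in treated and 12070 to 12590 CPM in control cells, with no overlap. The log2 fold change of -0.33 ± 0.14 SE missed the threshold (edgeR adjusted p = 0.053). The call turned on the settings: the adjusted p was 0.0045 in the fit of all genes with at least 10 reads, and it was 0.021 without control replicate 3. SLC35B2 also fell without scaling factors, with DESeq2 size factors, without a filter, with the DESeq2 Wald test and without the most counted gene. It did not pass with a replicate block, with a mean count of at least 10 or without any other single library. SLC35A1, which carries CMP-sialic acid, had 25.9, 14.3 and 63.8 CPM in treated cells, against 201, 242 and 201 CPM in control cells. It was 6.01-fold lower (log2 fold change -2.59 ± 0.45 SE, edgeR adjusted p = 6.4e-05), and without treated replicate 3 the log2 fold change was -3.23. RARS2, which overlaps it in the RefSeq annotation, had a log2 fold change of -0.96 (edgeR adjusted p = 0.065). The lysosomal sialic acid exporter SLC17A5 fell too, with 0, 5 and 3 reads in treated cells, against 14, 24 and 18 reads in control cells (log2 fold change -1.99 ± 0.69 SE, edgeR adjusted p = 0.020). Its call was lost without treated replicate 1, treated replicate 3 or control replicate 2, with an adjusted p of up to 0.091, and the log2 fold change was -1.38 without treated replicate 1 and -2.74 without treated replicate 2.

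Of 9 carriers of sugars and polyols, 4 were tested and 2 fell, beside 26.7% of all tested genes. SLC5A2, the sodium-glucose carrier of the kidney tubule, had 136, 93.0 and 83.0 CPM in treated cells, against 288, 255 and 339 CPM in control cells. It was 2.80-fold lower without overlap (log2 fold change -1.49 ± 0.31 SE, edgeR adjusted p = 3.6e-04). SLC2A12, a facilitative glucose carrier, had 6, 2 and 2 reads in treated cells, against 19, 31 and 15 reads in control cells (log2 fold change -1.88 ± 0.59 SE, edgeR adjusted p = 0.011). That call was lost without treated replicate 2, treated replicate 3 or control replicate 2, with an adjusted p of up to 0.063, and without treated replicate 1 the log2 fold change was -2.55. The broad glucose carriers did not pass: SLC2A3 had 6, 7 and 14 reads in treated cells, against 17, 8 and 14 reads in control cells (log2 fold change 0.20 ± 0.55 SE). SLC2A1 had 8, 4 and 11 reads in treated cells, against 7, 9 and 6 reads in control cells, and was below the filter. SLC37A4, which brings glucose 6-phosphate into the endoplasmic reticulum, did not pass (log2 fold change 0.79 ± 0.59 SE).

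Of 4 genes placed by family in the organic ion class, 2 were tested, and 1 rose and 1 fell. The shares over all tested genes were 24.9% and 26.7%. SLC22A17, a receptor for the iron-binding protein lipocalin 2, had 110, 143 and 262 CPM in treated cells, against 39.5, 30.2 and 32.0 CPM in control cells. It was 5.01-fold higher with no overlap (log2 fold change 2.33 ± 0.46 SE, edgeR adjusted p = 2.3e-04). SLC47A2, which expels organic cations in exchange for protons, had 207, 93.0 and 313 CPM in treated cells, against 687, 675 and 609 CPM in control cells. It was 3.18-fold lower (log2 fold change -1.67 ± 0.27 SE, edgeR adjusted p = 2.7e-05), and treated cells varied more than control cells. SLC22A7, an organic anion carrier of liver and kidney, was counted in treated cells only, with 3, 5 and 3 reads.

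Among vitamin, choline and heme carriers only SLC23A1 was tested. SLC23A1 takes up vitamin C with sodium and had 14, 21 and 21 reads in treated cells, against 0 reads in every control library. It was at least 31.9-fold higher in treated cells (edgeR adjusted p = 3.2e-06). Its relative SLC23A2, the vitamin C carrier of most cell types, had the opposite pattern at lower counts, with 0 reads in every treated library, against 6, 4 and 0 reads in control cells. It did not pass in the fit of genes with at least 10 reads (edgeR adjusted p = 0.073). In that fit the proton-coupled folate carrier SLC46A1 fell, with 0 reads in treated cells, against 9, 8 and 12 reads in control cells, a fold of at least 5.66 lower (edgeR adjusted p = 0.0034). The riboflavin carrier SLC52A3 fell as well, with 0 reads in treated cells, against 4, 6 and 6 reads in control cells (edgeR adjusted p = 0.021).

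Carriers of inorganic ions were mostly below the filter. SLC24A5, a sodium and calcium exchanger of pigment granules, had 246, 222 and 485 CPM in treated cells, against 1370, 947 and 1057 CPM in control cells. It was 3.51-fold lower with no overlap (log2 fold change -1.81 ± 0.24 SE, edgeR adjusted p = 2.5e-06). SLC24A1, its relative from rod photoreceptors, rose in the fit of genes with at least 10 reads, with 6, 3 and 19 reads in treated cells, against 2, 0 and 3 reads in control cells (edgeR adjusted p = 0.015). Of 10 carriers of protons, bicarbonate, sodium and chloride, 2 were tested. SLC4A11, known from the inner layer of the cornea, had 117, 64.4 and 38.3 CPM in treated cells, against 170, 151 and 233 CPM in control cells (log2 fold change -1.32 ± 0.41 SE, edgeR adjusted p = 0.010). It was lost without treated replicate 2 or treated replicate 3, with an adjusted p of up to 0.084.

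Sodium and proton exchangers had low counts. SLC9A3, the exchanger of kidney and gut, had 3, 7 and 2 reads in treated cells, against 0 reads in every control library, and rose in the fit of genes with at least 10 reads (edgeR adjusted p = 0.011). SLC9A7, an exchanger of the Golgi, rose there with 18, 4 and 8 reads in treated cells, against 4, 1 and 0 reads in control cells (edgeR adjusted p = 0.0082). SLC9A3R1, the scaffold that anchors SLC9A3, did not pass with 123, 215 and 217 CPM in treated cells, against 201, 158 and 151 CPM in control cells.

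Metal carriers held 9 genes, of which only SLC39A7, a zinc carrier of the endoplasmic reticulum, was tested. It did not pass (log2 fold change 0.62 ± 0.49 SE), with 16, 14 and 7 reads in treated cells, against 12, 15 and 14 reads in control cells. SLC39A10, a zinc importer, had 0 reads in every treated library, against 12, 12 and 9 reads in control cells. It was at least 6.44-fold lower in treated cells and fell in the fit of genes with at least 10 reads (edgeR adjusted p = 0.0019). SLC39A13, a zinc carrier whose loss in humans causes a connective tissue disorder, had the reverse pattern with 5, 1 and 6 reads in treated cells, against 0 reads in every control library (edgeR adjusted p = 0.012). SLC39A1 fell with 2, 0 and 0 reads in treated cells, against 12, 14 and 6 reads in control cells (edgeR adjusted p = 0.019). The zinc exporter SLC30A1 had 7, 10 and 4 reads in treated cells, against 6, 13 and 4 reads in control cells, and did not pass.

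Of 7 mitochondrial carriers of the SLC25 family, 3 were tested. SLC25A41, a carrier of ATP-Mg and phosphate, fell, beside 26.7% of all tested genes. It had 32.4, 7.16 and 12.8 CPM in treated cells, against 134, 50.4 and 123 CPM in control cells (log2 fold change -2.48 ± 0.63 SE, edgeR adjusted p = 0.0024). Without treated replicate 1 the log2 fold change was -3.24. SLC25A25, which carries the same substrates, was counted in treated cells only, with 10, 8 and 7 reads, and was at least 14.2-fold higher. It rose in the fit of genes with at least 10 reads (edgeR adjusted p = 5.4e-04). In that fit the ornithine carrier SLC25A15 fell, with 0 reads in treated cells, against 6, 6 and 3 reads in control cells (edgeR adjusted p = 0.027). The citrate carrier SLC25A1, with 17, 10 and 6 reads in treated cells, against 6, 6 and 15 reads in control cells, did not pass. Nor did the ADP and ATP exchanger SLC25A6 (log2 fold change 0.47 ± 0.45 SE).

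Bile acid and lipid carriers included no call after the filter. SLC10A1, the bile acid importer of the liver, had 227, 286 and 498 CPM in treated cells, against 257, 211 and 201 CPM in control cells. The groups overlapped and the log2 fold change of 0.60 ± 0.28 SE did not pass (edgeR adjusted p = 0.074). SLC10A6, a carrier of sulfated steroids, did not pass (log2 fold change -0.25 ± 0.49 SE). SLC27A5, a liver enzyme that activates bile acids, had 6, 5 and 9 reads in treated cells, against 0 reads in every control library, at least 11.4-fold higher (edgeR adjusted p = 0.0017 in the fit of genes with at least 10 reads). Neither the vesicular amine carrier SLC18A2 (log2 fold change 0.14 ± 0.57 SE) nor the phosphate carrier SLC20A2 (1.06 ± 0.67 SE) passed. The 2 nucleoside carriers were below the filter and overlapped between groups: SLC29A1 had 3, 4 and 2 reads in treated cells, against 0, 4 and 2 reads in control cells. SLC29A4 had 0, 7 and 14 reads in treated cells, against 2, 11 and 6 reads in control cells.

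The most counted of the other genes below the filter were spread over several classes, and most did not pass in the wider fit. SLC6A4, the serotonin carrier, had 6, 8 and 26 reads in treated cells, against 4, 12 and 10 reads in control cells. The bicarbonate carrier SLC4A5 had 9, 6 and 15 reads in treated cells, against 10, 12 and 7 reads in control cells. The zinc carrier SLC39A5 had 1, 4 and 1 reads in treated cells, against 10, 18 and 8 reads in control cells. Of these, SLC39A5 lay lower and SLC4A5 higher in every treated library once scaled, and neither passed. SLC44A3, of the choline carrier-like family, had 1, 5 and 1 reads in treated cells, against 17, 11 and 4 reads in control cells. The heme carrier SLC48A1 had 2, 7 and 9 reads in treated cells, against 9, 10 and 2 reads in control cells. Both overlapped between groups. SLC7A6OS, which is not a carrier, had 9, 6 and 7 reads in treated cells, against 9, 24 and 25 reads in control cells. SLC66A3 rose in the wider fit with 7, 14 and 7 reads in treated cells, against 4, 5 and 3 reads in control cells (edgeR adjusted p = 0.042).

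**Figure D4:**
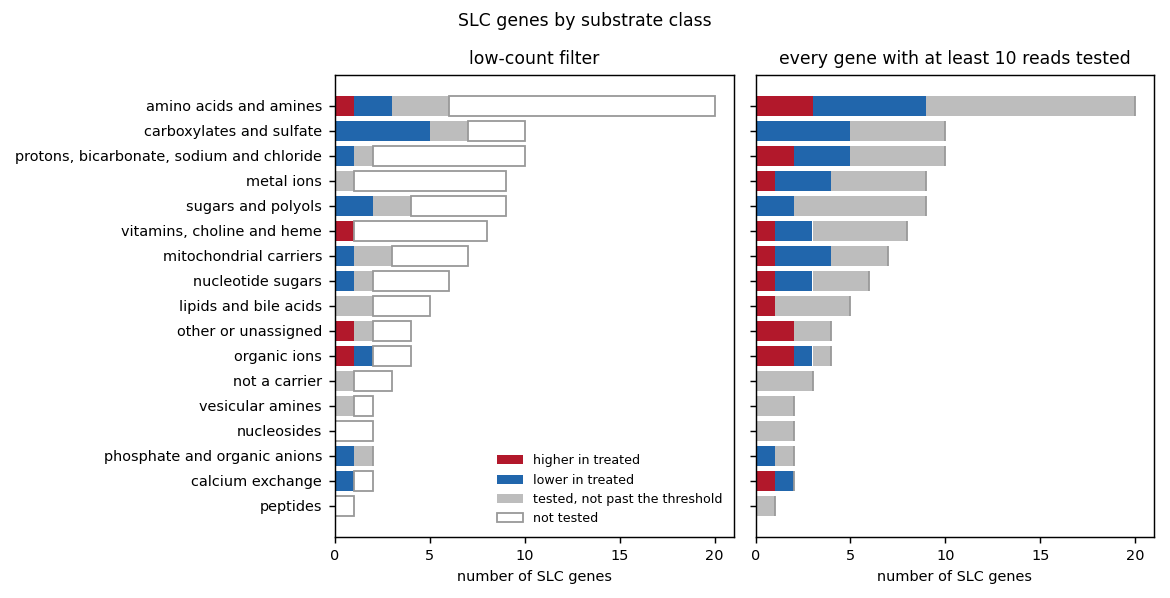
Bars count SLC genes per substrate class by outcome after the low-count filter (left) and in the fit of every gene with at least 10 reads (right), coloured for higher, lower and not past the threshold, with genes not tested in white. In the carboxylate and sulfate class 5 of 10 genes fell in both fits and none rose. After the filter 7 of the 10 were tested. Of all genes tested, 26.7% fell after the filter and 17.6% in the wider fit.

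Some SLC genes had at least 10 reads in one group and none in the other. There were 8 such genes in treated cells (7.69% of the 104, beside 4.74% of all genes with at least 10 reads) and 14 in control cells (13.5%, beside 8.23%). Those seen in treated cells alone were SLC23A1, SLC25A25, SLC27A5, SLC39A13, SLC9A3, SLC22A7, SLC43A3 and SLC35E4, and all 8 rose in the fit of genes with at least 10 reads. Of those seen in control cells alone, 10 fell there, among them SLC26A1, SLC39A10, SLC46A1, SLC52A3, SLC25A15, SLC36A4, SLC43A1, SLC41A3 and SLC12A2. The other 4, SLC16A8, SLC22A23, SLC15A4 and SLC23A2, had 10 or 11 reads and did not pass. All these genes were picked from the same counts for having 0 reads in a group, so their calls are a description and add no support. SLC43A3 had 0, 6 and 4 reads in treated cells, so its groups overlapped at 0. SLC12A2, which brings sodium, potassium and chloride into cells, had 0 reads in treated cells, against 4, 4 and 3 reads in control cells (edgeR adjusted p = 0.048). SLC43A1, an importer of large neutral amino acids, had 0 reads in treated cells, against 4, 2 and 5 reads in control cells (edgeR adjusted p = 0.049).

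Of the 24 genes below the filter that were called in the wider fit, 6 were called whichever library was left out: SLC7A1, SLC27A5, SLC39A10, SLC39A13, SLC25A25 and SLC46A1. The other 18 were lost without at least 1 library. SLC9A7 was lost without treated replicate 1, and SLC9A3 and SLC22A7 without treated replicate 2. SLC35E4 was lost without treated replicate 2 or control replicate 2, and SLC24A1 without treated replicate 3 or control replicate 2. The remaining 13, among them SLC16A10, SLC7A4, SLC39A1, SLC25A15, SLC52A3 and SLC66A3, were lost without each of 3 or more libraries in turn.

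**Figure D5:**
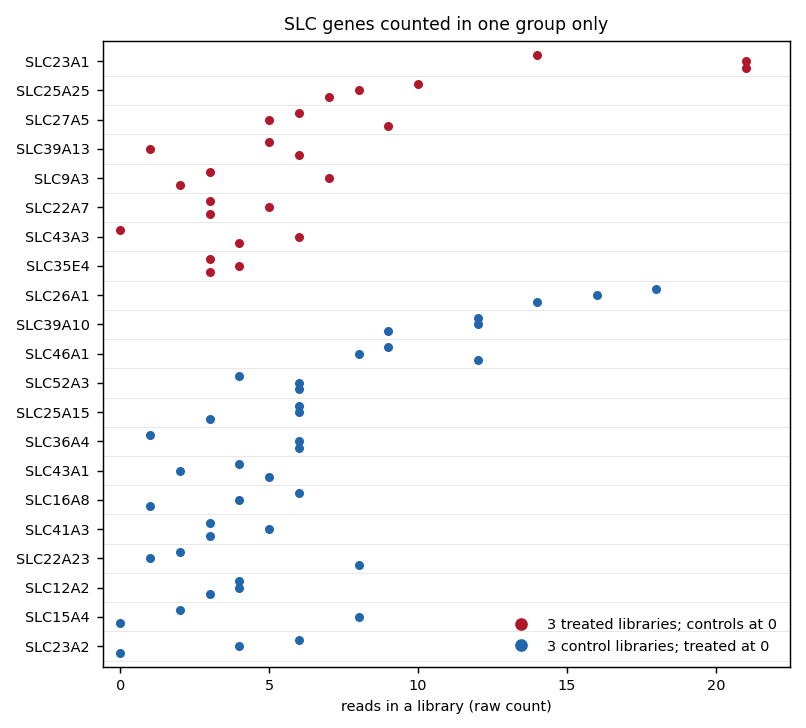
Points give raw reads per library, on the horizontal axis, for SLC genes with reads in one group only, the 8 seen in treated cells above and 13 of the 14 seen in control cells below. SLC23A1 reaches 21 reads in treated libraries and SLC26A1 18 reads in a control library, and most of the other genes stay at 12 or fewer.

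Membership rests on a minimum of 10 reads. SLC15A4, SLC23A2, SLC35E4 and SLC43A3 stand just inside it with 10 reads each, and 9 genes with 9 reads stand just outside, among them SLC7A11, the cystine carrier of the glutathione pathway, with 1, 0 and 3 reads in treated cells, against 0, 5 and 0 reads in control cells. The leucine carrier SLC7A5 had 8 reads, the mitochondrial phosphate carrier SLC25A3 had 6 reads and the copper importer SLC31A1 had 3 reads over all libraries. SLC16A1, SLC39A14 and SLC25A5 were not analysed here.

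Neighbouring genes were looked up because the strand setting of the read counting is not given in the sources used here, so reads of a gene and of an overlapping or antisense neighbour cannot be told apart. Of 96 SLC genes placed on the RefSeq goat annotation, 50.0% had another gene overlapping or within 1 kb, beside 53.2% of placed genes with at least 10 reads. Tested SLC genes with a neighbour had a median log2 fold change of -1.25 (18 genes) and those without one had 0.12 (15 genes). Among all tested genes the medians were -0.24 with and 0.47 without a neighbour. Of the 15 SLC genes that fell, 10 (66.7%) had a neighbour, near the 62.8% of all placed tested genes. For the most counted ones, OXA1L beside SLC7A7 had 6 reads, PREPL overlapping SLC3A1 had 18 and MYEF2 overlapping SLC24A5 had 8. RARS2, overlapping SLC35A1, had 141, and the neighbours of SLC16A12, SLC26A1 and SLC5A2 were not analysed here. A neighbour's own count cannot show whether its reads were counted on the SLC gene, so no conclusion is drawn from these totals. SLC39A10 overlaps DNAH7, which had the same pattern, with 0 reads in every treated library, against 8, 10 and 9 reads in control cells. SLC39A1 overlaps CREB3L4, with 10, 11 and 14 reads in treated cells, against 28, 27 and 15 reads in control cells (log2 fold change -0.22, edgeR adjusted p = 0.69). SLC41A3 overlaps ZXDC, which had 728 reads over all libraries (log2 fold change -0.31, edgeR adjusted p = 0.23). A fit of the 567 genes without a neighbour took in 13 SLC genes, of which 1 rose and 5 fell, beside 23.8% and 25.4% (49.2% together) of all genes in that fit.

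Other genes of the same pathways were read from lists. The counts that follow stand beside the 24.9% of all tested genes that rose and the 26.7% that fell, and with 2 to 5 genes tested in a list they describe those genes and not the pathway. Of 20 genes of the amino acid starvation response, 5 were tested, 3 rose and 1 fell. DDIT4, a stress-induced brake on mTORC1, had 149, 85.9 and 76.6 CPM in treated cells, against 19.7, 13.4 and 18.3 CPM in control cells (log2 fold change 2.57 ± 0.57 SE, edgeR adjusted p = 7.3e-04). The stress transcription factor ATF5 rose by 1.44 ± 0.53 (SE, edgeR adjusted p = 0.027) and the serine and glycine enzyme SHMT2 by 1.53 ± 0.57 (SE, edgeR adjusted p = 0.029) on the log2 scale. EIF2AK4, the kinase that senses uncharged tRNA, fell with 564, 508 and 874 CPM in treated cells, against 1974, 2340 and 2009 CPM in control cells (log2 fold change -1.70 ± 0.19 SE, edgeR adjusted p = 3.6e-07). Among 31 subunits, scaffolds and regulators of carriers, 2 were tested and moved oppositely. PDZK1, a scaffold of carriers in the kidney tubule, had 266, 344 and 313 CPM in treated cells, against 1030, 802 and 801 CPM in control cells (log2 fold change -1.51 ± 0.20 SE, edgeR adjusted p = 2.5e-06). WNK1, a kinase that regulates chloride carriers, was 0.95 ± 0.39 (SE) higher on the log2 scale (edgeR adjusted p = 0.044).

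Of 31 metal-handling genes outside the SLC series, 3 were tested. The ferritin heavy chain FTH1 rose by 0.53 ± 0.21 (SE) on the log2 scale (edgeR adjusted p = 0.039). The iron regulator ACO1 fell (log2 fold change -2.01 ± 0.44 SE, edgeR adjusted p = 5.7e-04), with 71.3, 28.6 and 31.9 CPM in treated cells, against 178, 151 and 215 CPM in control cells. Of 25 genes of lysosomal and mTORC1 nutrient sensing, 3 were tested and SESN1, a leucine sensor, fell (log2 fold change -2.06 ± 0.49 SE, edgeR adjusted p = 0.0014). Of 34 ion pumps, 4 were tested and ATP2A2, the calcium pump of the endoplasmic reticulum, rose (log2 fold change 0.95 ± 0.28 SE, edgeR adjusted p = 0.0075).

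Circular RNAs, closed by a back-splice that joins the end of an exon to an upstream start, were also counted from SLC genes. There were 32 of them from 25 SLC genes, 10 of which are among the 104. Together they had 2, 7 and 7 back-splice reads in treated cells, against 54, 50 and 36 reads in control cells. As a share of all back-splice reads this was 0.142%, 0.543% and 0.441% in treated cells, against 0.965%, 0.720% and 0.749% in control cells, with no overlap. An exonic circular RNA of the zinc carrier gene SLC30A7, at chr3:78123006-78130924 on the plus strand as deposited, had 0, 4 and 2 reads in treated cells, against 22, 18 and 12 reads in control cells. All back-splice reads numbered 1289 to 1586 in the treated and 4807 to 6944 in the control libraries. As a share of them, this circular RNA overlapped between the groups. Its linear row held a single read, in a treated library. A circular RNA of SLC25A24 had 2 reads in every treated library, against 0 in every control library, while another from the same gene and the same start had 0 reads in treated cells, against 1, 4 and 0 in control cells.

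Long noncoding RNAs annotated as antisense within introns of SLC genes numbered 3 in the deposited table, and their host genes are not among the 104. The one within SLC10A7 fell, with 1, 1 and 1 reads in treated cells, against 30, 33 and 16 reads in control cells (log2 fold change -2.90 ± 0.92 SE, edgeR adjusted p = 0.0075). The one within SLC34A2 fell as well, with 4, 0 and 1 reads in treated cells, against 24, 29 and 22 reads in control cells (log2 fold change -2.14 ± 0.83 SE, edgeR adjusted p = 0.029). Of 98 long noncoding RNAs tested, 30.6% fell. The one within SLC39A11 did not pass (log2 fold change 0.31 ± 0.67 SE), with 9, 8 and 1 reads in treated cells, against 21, 23 and 6 reads in control cells. Long noncoding RNA reads in all numbered 15888 to 23491 in the treated and 4959 to 5541 in the control libraries. As a share of them, the SLC39A11 one lay lower in every treated library, so the sign of its fold rests on the TMM scaling. The sizes of all 3 folds rest on it too, and no other scaling was tried for long noncoding RNAs.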

How the data were processed

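The authors deposited raw counts of reads per gene, per circular RNA and per long noncoding RNA, per the file headers; 18 normalized per-library columns were left unused. BWA, CASAVA 1.8 and, although the cells are from goat, the human genome build hg19 are listed in the submitters' processing notes. Which counter, strand setting and annotation were used is not given in the sources used here. Circular RNA coordinates are printed as deposited, with starts counted from 1 and no build.

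In R 4.3.3, the edgeR 4.0.16 quasi-likelihood test (glmQLFit, glmQLFTest) was run on counts after filterByExpr (minimum count 10) and TMM scaling, with Benjamini-Hochberg adjustment. Standard errors are the log2 fold change over the square root of F. Folds against 0 reads use a floor of 3 reads over 3 libraries, and 1 to 3 reads give a ratio with a 95% exact interval; both cover counting error only. In simulated data on the 2148 genes, the test recovered 26.6% of changes of 2-fold, with 3.59% of calls false, and 89.5% of changes of 4-fold, with 4.66% of calls false. The simulation changed a much smaller share of genes than the 51.6% called in these data, and both percentages depend on that share. Neighbours were looked up in RefSeq genes (assembly ARS1.2), leaving out unplaced scaffolds and the X chromosome. Substrate classes were assigned by family from general knowledge, so SLC43A3, which carries nucleobases, stands with its family among amino acid carriers.

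The genes and lists were chosen with earlier results of these data known. Genes are named if called without overlap, among the 10 most counted, among the 3 most counted of a class, in a set of 16 carriers or seen in one group only; up to 3 called genes are named per other list. Some genes taken by the rule are not reported here, and counts, medians and sums include them; a few others are given by name or plot only. Alternatives were other scalings, filters, thresholds, DESeq2 1.42.0, a replicate block, genes without neighbours and leaving out each library. Python 3.11.15, pandas 2.3.3, scipy 1.17.1 and matplotlib 3.10.9 were used.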

Additional observations from a re-analysis of the deposited data

How the results depend on the processing

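After the filter, 4 SLC genes were higher and 15 lower in treated cells. The higher count was 2 without scaling factors, 13 without a filter, 15 with every gene of at least 10 reads, 1 among genes without a neighbour and 5 to 8 without single libraries. The lower count was 26, 29, 5 and 12 to 17 in the last 4 of these. The count of 7 came without treated replicate 2 and that of 8 without control replicate 2. Of the 19 calls 13 held without each library, and 6 were lost without at least 1, among them SLC38A10, SLC16A6, SLC17A5, SLC4A11 and SLC2A12. In the fit of every gene with at least 10 reads, with settings chosen after seeing the data, the 15 higher genes became 7 among genes without a neighbour, 6 at an adjusted p of 0.01 and 10 to 13 without single libraries. The 29 lower genes became 17 with the DESeq2 Wald test, 12 among genes without a neighbour, 16 at an adjusted p of 0.01 and 19 to 30 without single libraries, the 19 without control replicate 2. With the replicate number as a block the filtered fit again gave 4 and 15, and the wider fit gave 9 and 19. Same-numbered libraries did not deviate together (correlations of -0.0060 to -0.0040), so the numbers were not taken as pairs. The cause of these moves was not tested. In the simulation, where a much smaller share of genes changed than was called here, most changes of 2-fold were missed at these read totals. Libraries of one group differed beyond counting error, with a chi-square per degree of freedom of 3.21 to 12.2. The most counted gene took 30.5% to 47.5% of treated and 3.51% to 14.5% of control gene reads. How much of the chi-square came from that gene was not tested.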
